A study of Mus musculus with 24 samples.

Results

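Levels of 10 genes of the unfolded protein response and the amino acid response were followed in pools of mouse blastocysts. The genes were taken by name from the array's own annotation. The rule used no threshold on their values, but the list was drawn up with earlier results of these data known: Atf4, Ddit3, Atf3, Trib3, Asns, Chac1, Xbp1, Hspa5, Dnajb9 and Herpud1. They are 10 of 37005 named genes or features on the array, carried by 19 of 56605 probes, and each of the 10 was among the 18397 genes that passed the filter on dim probes. Blastocysts are embryos at the last stage before implantation, made of an outer trophectoderm and an inner cell mass of epiblast and primitive endoderm.

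Total RNA from 24 pools was hybridised, each pool to an array of its own. The pools carried 6 condition codes, HC1, HC2, HC3, HC4, HC5 and HC6, with 4 pools for each code. A pool held 15 expanded blastocysts that had been frozen, except in HC6, where it held 20, so the HC6 code and pool size cannot be told apart. The series is titled for bisphenol A and the membrane estrogen receptor, but the labels give no treatment, dose, strain, sex or age for any code and do not say which code is a control. Each code was therefore set beside the rest. No label says that pools of one code came from separate females or cultures, so p-values here speak only of pool-to-pool spread, which may be technical. In pooled RNA, fewer cells of a type and less RNA per cell cannot be told apart.

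Cells answer unfolded protein in the endoplasmic reticulum through the sensors PERK, IRE1 and ATF6, and amino acid shortage through the kinase GCN2. PERK and GCN2 both phosphorylate eIF2, which lowers general translation and raises translation of the transcription factor ATF4. ATF4 then induces genes of amino acid synthesis, amino acid import and tRNA charging, while ATF6 and the spliced form of XBP1 induce chaperones and degradation factors of the endoplasmic reticulum. Embryos grown in culture can take up amino acids from the medium, and the trophectoderm and primitive endoderm are secretory epithelia.

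Short regulatory sequences read by these factors were searched in the 250 bases before each gene's RefSeq start (build GRCm38.p6, written on the gene's own strand, 5′ to 3′). All 10 genes had an entry in the promoter table. The motifs were the ER stress element (CCAAT and CCACG with 9 bases between), the ER stress element II (ATTGG and CCACG with 1 base between), the core TGACGTG of the unfolded protein response element, and CARE, the C/EBP-ATF response element bound by ATF4 (TGATGNAAN), on both strands. Of 32851 promoters, 0.113% held the ER stress element, 0.0304% the ER stress element II, 1.65% the unfolded protein response core and 3.44% a CARE.

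A CARE match was found in Asns, Herpud1, Chac1 and Atf3. Hspa5 held an ER stress element and the unfolded protein response core, and Herpud1 held an ER stress element II beside its CARE. No match was found in this window for Atf4, Ddit3, Xbp1, Trib3 or Dnajb9. The windows below belong to Asns (chr6:7693210-7693459, minus strand), Trib3 (chr2:152344061-152344310, minus strand), Herpud1 (chr8:94386179-94386428, plus strand) and Hspa5 (chr2:34771840-34772089, plus strand). Asns, Trib3 and Herpud1 are shown because their levels moved together from pool to pool, and Hspa5, the BiP gene, because it was called in none of the fits on them. Capitals mark the motif matches, which do not overlap.
Asns: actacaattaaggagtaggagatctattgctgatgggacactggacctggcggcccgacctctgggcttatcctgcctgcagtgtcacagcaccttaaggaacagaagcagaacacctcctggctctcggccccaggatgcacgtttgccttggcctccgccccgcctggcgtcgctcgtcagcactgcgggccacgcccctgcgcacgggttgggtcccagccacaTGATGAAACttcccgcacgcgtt
Trib3: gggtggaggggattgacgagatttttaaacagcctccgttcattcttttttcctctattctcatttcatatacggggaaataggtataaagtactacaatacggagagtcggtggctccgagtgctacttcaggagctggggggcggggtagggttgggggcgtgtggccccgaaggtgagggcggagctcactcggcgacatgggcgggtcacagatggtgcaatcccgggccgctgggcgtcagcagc
Herpud1: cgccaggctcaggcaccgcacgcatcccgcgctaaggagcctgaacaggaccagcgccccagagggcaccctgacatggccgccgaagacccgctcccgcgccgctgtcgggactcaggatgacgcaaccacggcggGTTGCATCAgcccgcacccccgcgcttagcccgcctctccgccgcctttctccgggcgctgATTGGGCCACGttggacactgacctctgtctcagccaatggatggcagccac
Hspa5: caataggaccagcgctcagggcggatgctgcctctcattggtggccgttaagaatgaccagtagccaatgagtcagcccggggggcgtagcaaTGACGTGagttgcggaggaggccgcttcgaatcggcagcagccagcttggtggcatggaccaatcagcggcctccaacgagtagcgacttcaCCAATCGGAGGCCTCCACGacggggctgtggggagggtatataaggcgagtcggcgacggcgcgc
The Asns CARE lies 23 to 15 bases before the start and reads TGATGAAAC. In Herpud1 the CARE is on the opposite strand, 113 to 105 bases before the start, and the ER stress element II lies 52 to 42 bases before it. In Hspa5 the ER stress element lies 65 to 47 bases before the start and the core TGACGTG 157 to 151 bases before it. These are matches of letters and show neither binding nor use.

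On each array 38.6% to 49.7% of spots were well above background, and the signal's 75th percentile was lowest at 65.1 (HC5 replicate 4) and highest at 177 (HC3 replicate 3). Levels are given as the log2 of the signal over that percentile, so that 0 is the array's 75th percentile and a difference of 1 is a doubling. All 8 trophectoderm, 7 epiblast and 8 primitive endoderm markers were well above background on all 24 arrays. Of 8 cumulus and granulosa cell markers, 2 passed the filter. These were Foxl2, well above background on all 24 arrays with a mean level of 4.67, and Has2, on 9 arrays. Amh, Fshr, Cyp19a1, Inhba, Ptx3 and Star did not pass. Of the pools, HC6 replicate 3 had the lowest trophectoderm marker score, a mean deviation of -0.49 from the 24-pool mean, against a highest score of 0.22. HC5 replicate 4, the dimmest array, was lowest for 5 of the 10 genes, and HC6 replicate 3 was lowest for 3. Values without these pools are given beside the results that they move.

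Each gene is represented by its brightest probe. These probes were well above background on all 24 arrays for 9 genes and on 21 arrays for Atf3, which had 23 values. A level of one gene cannot be set against that of another, because probes differ in brightness, and the comparisons below are within a gene. Across pools the highest value exceeded the lowest by 4.37 times for Dnajb9 and for Atf3, 3.31 times for Ddit3, 2.88 times for Trib3, 2.65 times for Chac1 and 2.41 times for Herpud1. The range was narrower for Asns (1.85 times), Atf4 (1.77 times), Xbp1 (1.74 times) and Hspa5 (1.73 times).

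Atf4 encodes the transcription factor through which eIF2 phosphorylation reaches the genes of amino acid supply. Its level in pools 1 to 4 was 7.46, 6.71, 7.24 and 7.24 in HC1, 7.05, 6.97, 7.06 and 7.53 in HC2, and 7.35, 6.99, 7.10 and 7.04 in HC3. It was 7.40, 6.95, 7.49 and 7.29 in HC4, 7.31, 7.32, 6.95 and 6.95 in HC5, and 7.25, 7.10, 6.97 and 7.39 in HC6. Every condition held pools on both sides of the 24-pool median of 7.17, and condition means lay between 7.12 ± 0.16 (HC3, SD, n = 4) and 7.28 ± 0.24 (HC4, SD, n = 4).

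Trib3 encodes a pseudokinase that ATF4 and CHOP induce and that restrains AKT and ATF4 itself. Its level in pools 1 to 4 was 5.18, 4.00, 4.98 and 4.50 in HC1, 4.28, 4.50, 4.78 and 5.08 in HC2, and 5.11, 4.11, 4.69 and 4.43 in HC3. It was 5.01, 3.93, 4.86 and 5.07 in HC4, 4.91, 4.99, 4.40 and 4.39 in HC5, and 5.35, 4.54, 3.83 and 5.005 in HC6. The highest and the lowest pool of all 24 both belonged to HC6, and the condition means spanned only 4.58 ± 0.42 (HC3) to 4.72 ± 0.53 (HC4; SD, n = 4 each). Among all genes tested, 71.6% had a smaller SD over pools than Trib3, but only 9.96% had a smaller span of condition means.

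Asns encodes asparagine synthetase, a textbook target of the amino acid response. Its level in pools 1 to 4 was 6.60, 5.94, 6.36 and 6.18 in HC1, 6.17, 6.10, 6.15 and 6.54 in HC2, and 6.50, 6.02, 6.35 and 6.16 in HC3. It was 6.45, 6.10, 6.40 and 6.32 in HC4, 6.51, 6.41, 5.86 and 5.98 in HC5, and 6.50, 6.23, 5.72 and 6.52 in HC6. The conditions overlapped throughout, with HC6 replicate 3 lowest and HC1 replicate 1 highest.

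Herpud1 encodes a membrane protein of the endoplasmic reticulum that helps assemble the machinery for degradation of misfolded proteins. Pools 1 to 4 read 2.50, 1.80, 2.16 and 2.14 in HC1, 2.11, 1.96, 2.14 and 2.76 in HC2, and 2.65, 1.76, 2.31 and 1.78 in HC3. It was 2.49, 2.02, 2.27 and 2.16 in HC4, 2.61, 2.66, 2.11 and 1.49 in HC5, and 2.21, 1.95, 1.61 and 2.60 in HC6. The highest pool (HC2 replicate 4) was also the highest for Atf4, and the conditions again overlapped.

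Hspa5 encodes BiP, the main chaperone of the endoplasmic reticulum lumen, which also holds the sensors inactive. In pools 1 to 4 the values were 5.68, 5.43, 5.69 and 5.73 in HC1, 5.78, 5.49, 5.44 and 5.66 in HC2, and 5.82, 5.83, 5.64 and 5.60 in HC3. It was 5.83, 5.93, 5.92 and 5.18 in HC4, 5.86, 5.83, 5.52 and 5.14 in HC5, and 5.17, 5.72, 5.91 and 5.70 in HC6. The 3 lowest pools, HC5 replicate 4, HC6 replicate 1 and HC4 replicate 4, came from 3 conditions. HC6 replicate 1 had the highest Trib3 level of all 24 pools, and HC6 replicate 3, lowest for Trib3, was among the highest for Hspa5.

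Xbp1 encodes the transcription factor whose mRNA IRE1 splices, a step that the level of its mRNA does not show. Pools 1 to 4 read 3.91, 3.48, 3.84 and 4.04 in HC1, 3.70, 3.66, 3.64 and 3.99 in HC2, and 3.96, 3.70, 3.87 and 3.64 in HC3. It was 4.13, 3.92, 3.85 and 3.59 in HC4, 3.95, 3.88, 3.80 and 3.33 in HC5, and 3.56, 3.77, 3.99 and 3.85 in HC6. HC5 replicate 4 was the lowest pool for Xbp1 as for Hspa5.

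Atf3, a stress-induced transcription factor downstream of ATF4, was the dimmest of the 10. In pools 1 to 4 the values were -2.33, -2.18, -1.59 and -2.32 in HC2, -1.58, -1.41, -2.66 and -1.08 in HC3, and -1.13, -0.96, -1.79 and -1.01 in HC4. It was -1.62, -1.56, -2.11 and -2.89 in HC5, -1.52, -2.42, -0.76 and -1.59 in HC6, and -2.37, -2.31 and -1.78 in HC1 replicates 1, 2 and 4. HC6 replicate 3 was the highest of all, and HC5 replicate 4, the dimmest array, was the lowest.

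Ddit3 encodes CHOP, the transcription factor tied to death under lasting stress, and ranged from 0.33 in HC6 replicate 3 to 2.06 in HC6 replicate 1, with a median of 1.25. Chac1, a glutathione-degrading enzyme induced by ATF4, ranged from 0.96 in HC4 replicate 2 to 2.37 in HC5 replicate 1, with a median of 1.62. Dnajb9, a co-chaperone of BiP induced through XBP1, ranged from -1.50 in HC5 replicate 4 to 0.63 in HC4 replicate 2, with a median of -0.29. Both extremes of Ddit3 fell in HC6.

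**Figure D1:**
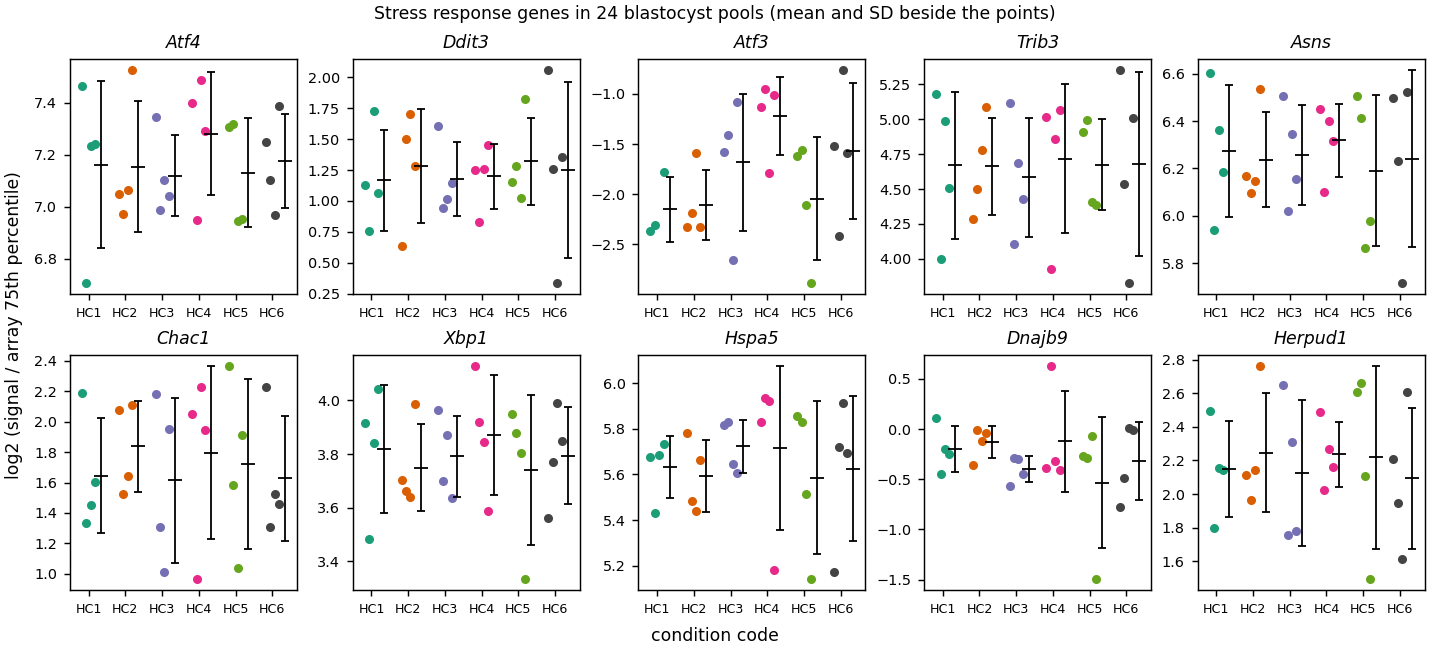
Level of each of the 10 genes in every pool (log2 of signal over the array's 75th percentile, vertical axis) by condition code (horizontal axis); coloured points are pools 1 to 4 from left to right, and the black bar beside them is the mean with its SD. For Trib3 and Ddit3 the highest and the lowest of all pools both belong to HC6, where Trib3 runs from 3.83 to 5.35. For the other genes no single condition spans the whole set.

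No member differed between conditions past the threshold. In the limma F-test over the 6 condition means, 0 of 18397 genes were called at an adjusted p of 0.05 (0%), against 390 genes at an unadjusted p under 0.05. The members' unadjusted F-test p ran from 0.169 for Atf3 to 0.999 for Trib3, and every adjusted p was 1. With each code compared with the average of the remaining 5, limma called 0 genes (0%) for each of the 6 codes, with 303 to 1058 genes at an unadjusted p under 0.05. Over all 15 pairs, limma called 0 of 275955 gene and pair combinations (0%), with 7982 at an unadjusted p under 0.05.

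The largest member difference was that of Atf3 in HC4. Its mean there was -1.22 ± 0.39 (SD, n = 4), 0.69 higher on the log2 scale than the mean of the other 5 conditions (SE 0.28, unadjusted 95% interval 0.10 to 1.28, limma adjusted p = 1). The difference was 0.85, 0.78 and 0.56 within the 3 slides, on which HC4 had 1, 1 and 2 pools. The size depends on the scaling: it was 0.262 with normexp background correction and quantile normalization and 0.396 with the authors' values. Its span of condition means, 0.93, exceeded that of 90.7% of genes, and was 0.353 and 0.54 under the same alternatives, whereas that of Asns, 0.13, exceeded that of 8.95%. The median span over all genes was 0.31. Of 60 member contrasts, the interval left 0 only for Atf3 in HC4.

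For the other members these unadjusted intervals bound only the difference of a code from the mean of the rest. For Asns the outermost bounds over the 6 codes were -0.38 and 0.38, and for Trib3 -0.63 and 0.59. Intervals for pairs of codes were wider. For Asns, HC4 minus HC5 had an interval of -0.26 to 0.52. For Trib3, HC3 minus HC4 had -0.82 to 0.55. The labels do not say which code is a control, and a difference from it past the outermost bounds could have gone unseen. For Dnajb9, the next most variable by condition after Atf3, HC5 lay 0.30 lower than the rest (interval -0.73 to 0.13, limma adjusted p = 0.853). Without HC5 replicate 4, HC5 lay 0.02 higher.

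**Figure D2:**
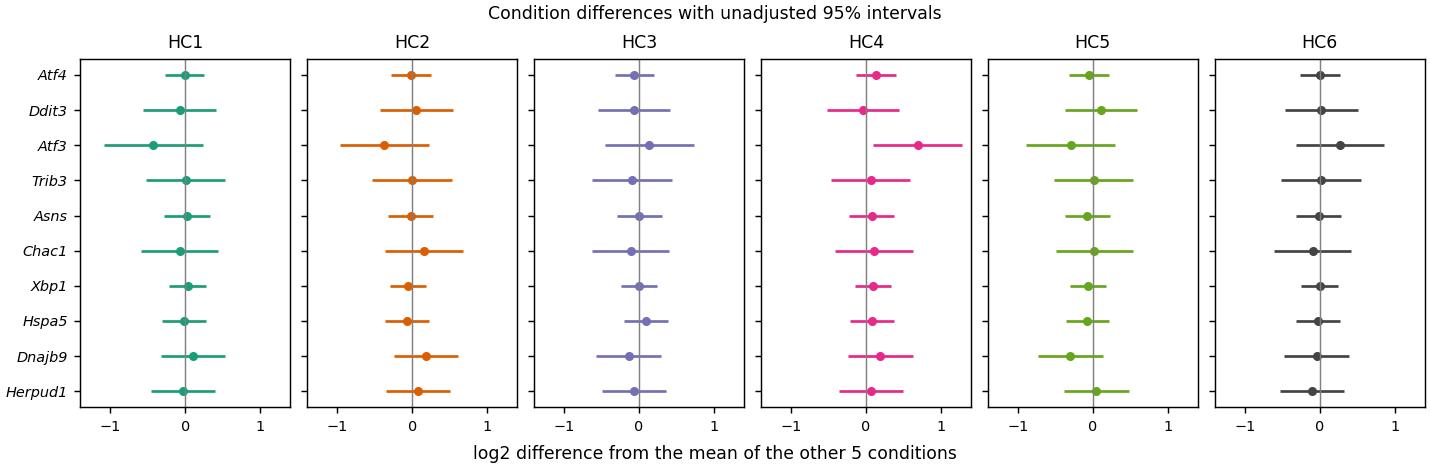
Difference of each condition from the mean of the other 5 (horizontal axis, log2) for the 10 genes (vertical axis); points are limma estimates and lines unadjusted 95% intervals. Every interval crosses 0 but that of Atf3 in HC4, at 0.69 (0.10 to 1.28), a difference that was 0.262 with normexp and quantile normalization.

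Wider sets of genes of these pathways also held no call in any condition. None of 22 sensor and eIF2 kinase genes, 20 chaperones and folding enzymes, 25 degradation and translocation genes, 31 amino acid and stress targets of ATF4 (of 33 on the array) and 20 aminoacyl-tRNA synthetases passed in the limma fit, against the same share of 0% over all genes. The genes of smallest F-test p were Mbtps2, Ppp1r15a and Atf6b among sensors (0.128, 0.139 and 0.224), Sdf2l1, Ero1b and Calr among chaperones (0.051, 0.202 and 0.308) and Derl3, Sec63 and Sec24d among degradation genes (0.0605, 0.151 and 0.229), all unadjusted and with limma adjusted p = 1. Among ATF4 targets they were Vldlr, Aldh1l2 and Ddit4 (0.0771, 0.12 and 0.13), and among synthetases Dars, Iars and Yars (0.171, 0.643 and 0.721), likewise with limma adjusted p = 1.

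For the ATF4 target set one pool moved the counts. In HC2, 26 of the 31 genes had higher means than in the rest, with a median difference of 0.07 against -0.02 over all genes, and 20 did without HC6 replicate 3, with a median of 0.04. In HC6, 27 of the 31 genes had means under those of the remaining codes, and the median difference was -0.11, against -0.0041 over all genes. Without HC6 replicate 3, 22 of the 31 were higher and the median was 0.06 against 0.0058. In HC4, 27 of the 31 had higher means, with a median of 0.05 against 0.03 over all genes, and 19 were higher without HC6 replicate 3.

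Within conditions the picture was different: Atf4, Trib3, Asns and Herpud1 rose and fell together from pool to pool. The test was a limma fit over all genes with the level of one member as a covariate beside the 6 condition means, repeated for the 9 members above background on all arrays. A slope is the log2 change of a gene for each log2 unit of the covariate. Of the ordered pairs of members, 18 were called with a positive slope, and 12 of these are all the pairs that Atf4, Trib3, Asns and Herpud1 can form.

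With Asns as covariate, Trib3 rose by 1.63 (limma adjusted p = 0.000251), Herpud1 by 1.27 (limma adjusted p = 0.00102) and Atf4 by 0.76 (limma adjusted p = 0.00225). These were 3 of 9 members, where 1.16% of all genes were called with a positive slope. Trib3 ranked 5th of 18396 genes in that fit. With Trib3 as covariate, 0.516% of genes were called, among them Asns with a slope of 0.50 (limma adjusted p = 0.000827), Atf4 with 0.41 and Herpud1 with 0.62. The call of Herpud1 there was lost without HC3 replicate 1, HC3 replicate 2, HC6 replicate 3 or HC2 replicate 4 (limma adjusted p = 0.0508 to 0.0583).

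With Atf4 as covariate, 1.02% of genes were called, and Asns ranked 5th, Trib3 9th and Herpud1 15th from the top. Their slopes were 1.01, 1.76 and 1.39 (limma adjusted p = 0.00417, 0.00443 and 0.00668). With Herpud1 as covariate, 3.09% were called, among them Asns, Atf4 and Trib3 with slopes of 0.60, 0.50 and 0.96. With Chac1 as covariate 0.0381% of genes were called, and no member was among them. Over the 24 pools Chac1 and Atf4 correlated with r = 0.611 and rho = 0.626 (permutation p = 0.00173 and 0.00125, adjusted p = 0.00865 over 45 pairs of members), with r = 0.582 without HC1 replicate 2 and HC2 replicate 4 and 0.857, 0.406 and 0.496 within slides.

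Over the 24 pools, Trib3 and Asns correlated with Pearson's r = 0.888 and Spearman's rho = 0.886 (permutation p = 1e-05 for both, the smallest that 100000 resamples can give; adjusted p = 0.000112 over 45 pairs of members). Without HC6 replicate 3 and HC4 replicate 2, the pools farthest from the median, r was 0.884, and within the 3 slides of 8 pools it was 0.940, 0.865 and 0.889. For Atf4 and Asns r was 0.871 and rho 0.924 (permutation p = 1e-05 for both, adjusted p = 0.000112), and r was 0.869 without HC1 replicate 2 and HC2 replicate 4 and 0.968, 0.801 and 0.938 within slides. The relation was as close when condition means were removed, at r = 0.900 for Trib3 and Asns and 0.879 for Atf4 and Asns.

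Second probes of the same genes gave lower but positive values. The second Asns probe followed the first at r = 0.797 over pools, the second Atf4 probe at 0.701 and the second Herpud1 probe at 0.643. Against Trib3, which has 1 probe, the second Asns probe had r = 0.778 (rho 0.677, permutation p = 1e-05 and 0.00042), the second Herpud1 probe 0.577 (rho 0.543, permutation p = 0.00317 and 0.00701) and the second Atf4 probe 0.569 (rho 0.554, permutation p = 0.00413 and 0.0057). Over the 16 relations of this kind the adjusted p were 0.00016, 0.022 and 0.022. Without HC6 replicate 3 and HC4 replicate 2 these r were 0.735, 0.408 and 0.540. Within the 3 slides they were 0.797, 0.879 and 0.554 for the Asns probe, 0.189, 0.803 and 0.793 for the Herpud1 probe and 0.712, 0.674 and 0.437 for the Atf4 probe.

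Hspa5 and Xbp1 formed another pair. With Xbp1 as covariate Hspa5 had a slope of 0.96 (limma adjusted p = 0.00208), and with Hspa5 as covariate Xbp1 had 0.64 (limma adjusted p = 0.0023). These fits called far more of the array, 13.1% and 13.2% of genes with a positive slope, so that a call says less about a member there. Dnajb9 was called in both fits (slopes 1.08 and 0.91) and Herpud1 in the Xbp1 fit (1.16). Trib3 against Hspa5 had r = -0.189 (rho -0.161, permutation p = 0.376 and 0.449, adjusted p = 0.513), and r was -0.141 without HC5 replicate 4 and HC6 replicate 1 and 0.018, -0.650 and 0.163 within slides.

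The Hspa5 and Xbp1 pair depends on which Xbp1 probe is read. The main Xbp1 probe (mm9, chr11:5425816-5425875) followed Hspa5 at r = 0.781 (rho 0.698, permutation p = 2e-05 and 0.00021, adjusted p = 0.00018), at 0.673 without HC5 replicate 4 and HC6 replicate 1, and at 0.809, 0.694 and 0.803 within slides. The probes at chr11:5424970-5425029 and chr11:5424869-5424928 had r = 0.020 and -0.065 with Hspa5 (rho -0.045 and -0.009, permutation p = 0.926 and 0.834 for the first, 0.764 and 0.969 for the second, adjusted p = 0.966 for both). These 2 probes followed each other at r = 0.604 but the main probe only at 0.242 and 0.169. Hspa5 probes differed too. The main Hspa5 probe followed that at chr2:34631136-34631195 at r = 0.713 (0.731 without HC5 replicate 4 and HC6 replicate 1). It followed that at chr2:34630699-34631075 at only 0.383 over 23 pools (rho 0.508, permutation p = 0.0707 and 0.0147), and at 0.180 without HC5 replicate 4 and HC4 replicate 4. Hspa5 fits and scores given here are those of its main probe. With the mean of each gene's probes in place of the brightest, the adjusted p of the pair in the limma fit was 0.941 and 0.87.

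The calls of Dnajb9 in these fits were close to the threshold. Hspa5 and Dnajb9 had r = 0.548 (rho 0.319, permutation p = 0.0049 and 0.129, adjusted p = 0.0155), and r was 0.188 without HC5 replicate 4 and HC6 replicate 1, so that the relation rests on those pools. Within slides it was 0.321, 0.429 and 0.651. Without HC5 replicate 4 the limma adjusted p of Dnajb9 was 0.21 in the Hspa5 fit and 0.34 in the Xbp1 fit, with slopes of 0.55 and 0.58. The call in the Hspa5 fit was also lost without HC6 replicate 1 (limma adjusted p = 0.0818). That in the Xbp1 fit was also lost without HC1 replicate 1 or 2, HC4 replicate 4, HC5 replicate 1 or 2, or HC6 replicate 1 or 3 (limma adjusted p = 0.0513 to 0.0818). Herpud1 in the Xbp1 fit had a limma adjusted p of 0.143 without HC5 replicate 4, 0.052 without HC2 replicate 4 and 0.16 with the authors' values. With Dnajb9 as covariate 2.17% of genes were called, and no member.

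Ddit3 shared the movement of Trib3 in part. With Ddit3 as covariate 1.15% of genes were called with a positive slope, Trib3 among them (0.77, limma adjusted p = 0.0389), but the call was lost with any of 14 single pools left out. The limma adjusted p was 0.199 without HC6 replicate 1, 0.136 without HC6 replicate 3 and 0.0504 to 0.065 without the other pools, which were HC1 replicates 2, 3 and 4, HC2 replicate 1, HC3 replicates 1, 2 and 4, HC4 replicates 1, 2, 3 and 4, and HC5 replicate 3. HC6 replicates 1 and 3 hold the highest and the lowest level of both genes. In the Hspa5 fit Ddit3 was the 1 member called with a negative slope (-0.96, limma adjusted p = 0.0431), where 8.29% of genes were. The 2 Ddit3 probes, designed to different transcript records, followed each other only at r = 0.241, so these values hold for the main probe. With Hspa5 the main Ddit3 probe had r = -0.569, but the second had 0.050 (rho 0.023, permutation p = 0.814 and 0.918, adjusted p = 0.966). With Trib3 the main probe had r = 0.695 and the second 0.473 (rho 0.502, permutation p = 0.0197 and 0.0132, adjusted p = 0.0788). Atf3 was called in none of the 9 fits, with limma adjusted p from 0.258 to 0.959.

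**Figure D3:**
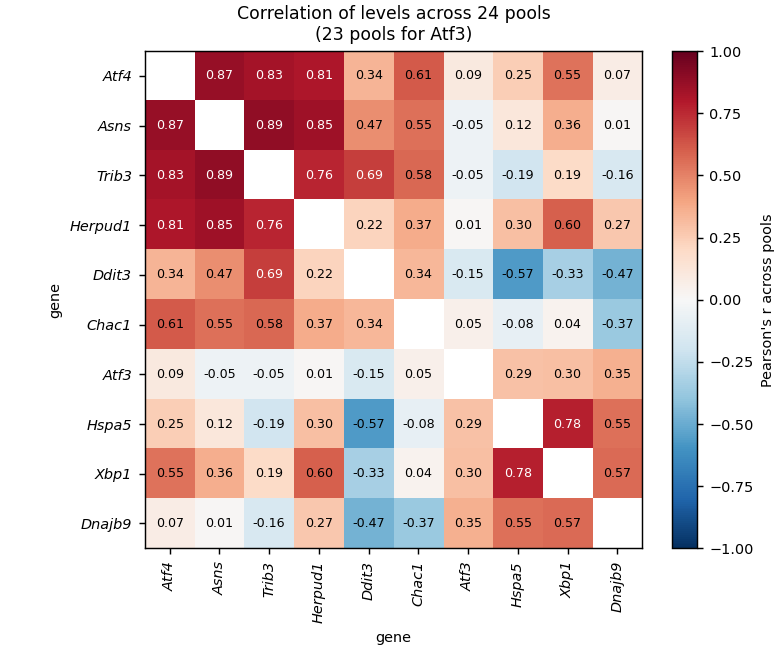
Pearson's r between the levels of each pair of the 10 genes over the pools (colour and number; both axes list the genes). Atf4, Asns, Trib3 and Herpud1 form a block with r from 0.76 to 0.89, Hspa5 and Xbp1 reach 0.78, and Hspa5 against Ddit3 is -0.57. These are values of the brightest probes. Against Hspa5, the other probes of Xbp1 had r = 0.020 and -0.065, and the second Ddit3 probe had 0.050.

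**Figure D4:**
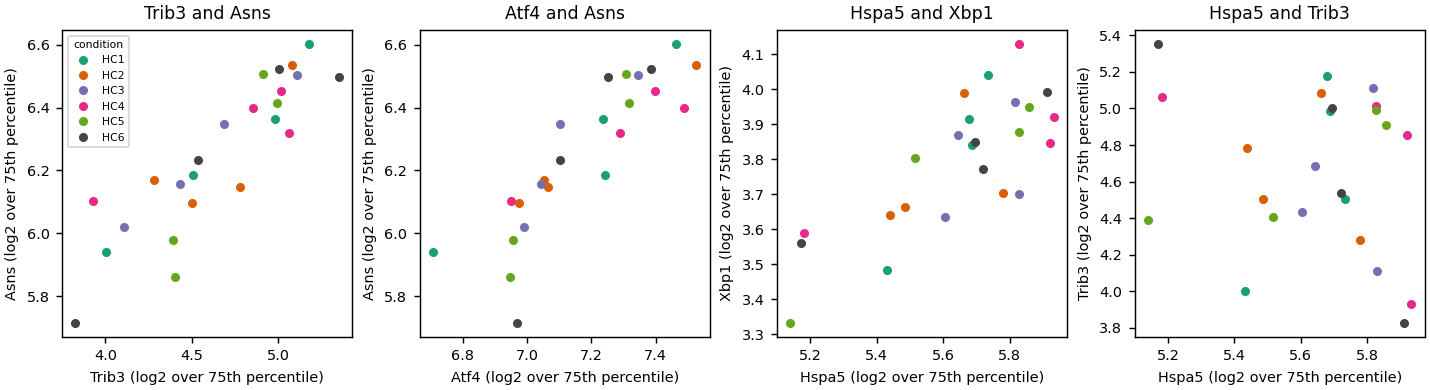
Levels of paired genes in the 24 pools (both axes log2 of signal over the array's 75th percentile), coloured by condition. Over all pools Trib3 and Asns, and Atf4 and Asns, rise together (r = 0.888 and 0.871), Hspa5 and Xbp1 do so at r = 0.781, and Hspa5 and Trib3 show r = -0.189. The brightest probes are drawn, and the other Xbp1 probes had r = 0.020 and -0.065 with Hspa5.

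Among the wider sets, genes of amino acid supply and tRNA charging were called with Trib3, Asns and Atf4 well beyond the share over all genes. With Trib3 as covariate, 14 of 31 amino acid and stress targets of ATF4 and 8 of 20 aminoacyl-tRNA synthetases had a positive slope past the threshold, against 0.516% of all genes. Their median slopes were 0.46 and 0.28, against 0.02 over all genes. None of 20 chaperones or 25 degradation and translocation genes was called. With Asns the counts were 15 of 31, 9 of 20, 0 of 20 and 0 of 25, with median slopes of 0.78, 0.57, 0.05 and 0.26 against 0.06 over all genes. With Atf4 they were 11 of 31, 5 of 20, 0 of 20 and 0 of 25, against 1.02% of all genes. Its median slopes were 0.88, 0.49, 0.15 and 0.32, against 0.08 over all genes. Where only 0.516% to 1.16% of all genes were called, 0 calls in 20 or 25 genes is near the array's own share. These 0 counts therefore do not set the chaperone and degradation sets apart. With the mean of each gene's probes the Atf4 fit called 0 of either set and 1 gene of the array. Without HC1 replicate 2 it called 7 and 2, and its synthetases fell to 3 without HC1 replicate 1 or HC3 replicate 1 and to 2 without HC2 replicate 4. The Asns fit called 5 synthetases without HC1 replicate 2.

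The called genes cover serine and proline synthesis, amino acid import and tRNA charging. They were chosen for naming after their values were seen. In the Trib3 fit Psat1 and Psph, which make serine, had slopes of 0.68 and 0.71 (limma adjusted p = 0.000136 and 7.02e-05). Mthfd2, of mitochondrial folate metabolism, had 0.52, and Aldh18a1 and Pycr1, which make proline, had 0.70 and 1.29. Slc7a1, the importer of arginine and lysine, had 0.79, and Slc7a3 and Slc6a9 had 0.68 and 0.80. Cebpb and Atf5, transcription factors that work with or below ATF4, had 0.70 and 0.80, and the secreted stress factor Gdf15 had 0.68. The limma adjusted p of these ran up to 0.0309.

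In all 4 fits, with Atf4, Trib3, Asns and Herpud1 in turn, 7 ATF4 targets were called: Cebpb, Gdf15, Mthfd2, Psat1, Psph, Slc7a1 and Slc7a3. So were 3 synthetases, Gars, Lars and Nars, which charge glycine, leucine and asparagine tRNAs, and 1 sensor list gene, Ppp1r15b, which encodes a regulatory subunit of the phosphatase that acts on eIF2. With Herpud1 as covariate 8 of 31 ATF4 targets, 6 of 20 synthetases, 1 of 20 chaperones and 3 of 25 degradation genes were called. Without HC2 replicate 4 it called 3 synthetases. Its degradation count was 0 without HC1 replicate 2, HC2 replicate 4, HC3 replicate 4, HC5 replicate 1, 2 or 4, or HC6 replicate 4, and 1 without HC2 replicate 2 or HC4 replicate 1 or 3. Its chaperone count ran from 0 to 2 with single pools left out, at 0 without HC5 replicate 4.

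With Hspa5 as covariate, 9 of 20 chaperones and folding enzymes were called with a positive slope, against 13.2% of all genes. So were 5 of 25 degradation and translocation genes, nearer that share, 1 of 20 synthetases and 0 of 31 ATF4 targets. With Xbp1 the counts for chaperones, degradation genes, ATF4 targets and synthetases were 8 of 20, 7 of 25, 1 of 31 and 3 of 20. The share of all genes was 13.1%, to which the synthetase count was close. Both fits called the chaperones and folding factors Dnajb11, Dnajc10, Dnajc3, Hsp90b1, Manf, Pdia3 and Pdia6. Set genes named from these fits were chosen after their values were seen. Manf, a small secreted stress protein, had a slope of 0.49 on Hspa5 (limma adjusted p = 0.000854) and Hsp90b1, the chaperone GRP94, had 0.51 (limma adjusted p = 0.00485). P4hb fell in the Hspa5 fit (-0.65) and Hyou1 in the Xbp1 fit (-1.02), where 8.29% and 7.81% of genes fell. These chaperone counts depend on the scaling: they were 4 for Hspa5 and 1 for Xbp1 with quantile normalization or the authors' values. With the mean of each gene's probes no gene of the array was called with a positive slope in either fit. Without HC5 replicate 4 the Xbp1 fit called 3 chaperones and 1 degradation gene. The degradation count of the Hspa5 fit ran from 2 to 8 with single pools left out. It was 2 without HC2 replicate 1, HC5 replicate 2 or HC5 replicate 4, 3 without HC1 replicate 2, HC2 replicate 2 or 3, HC4 replicate 1 or HC5 replicate 1, and 8 without HC6 replicate 3.

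**Figure D5:**
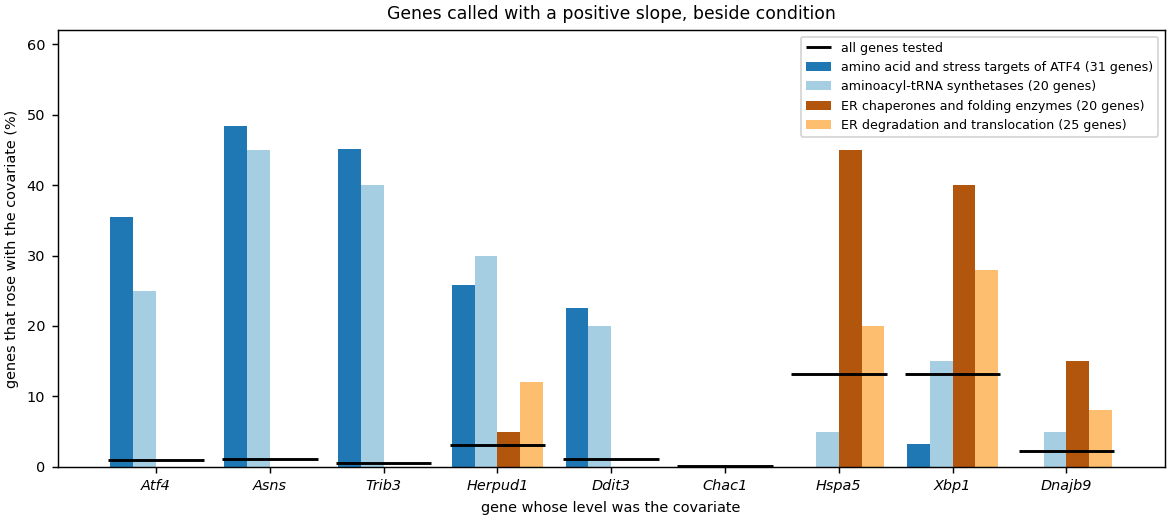
Share of each gene set called with a positive slope (vertical axis, %) when the level of the gene on the horizontal axis was the covariate beside condition; black lines give the share over all genes tested. ATF4 targets and synthetases stand well above the line for Atf4, Asns and Trib3 (14 of 31 and 8 of 20 for Trib3), and chaperones for Hspa5 and Xbp1 (9 of 20 and 8 of 20).

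Marker scores of the embryo's lineages moved with some of these genes. Over 70 relations of members with array measures and marker scores, Asns followed the primitive endoderm score (r = 0.696, rho 0.678, permutation p = 0.0001 and 0.00038, adjusted p = 0.0035; r = 0.668 without HC5 replicates 3 and 1). Within slides this was 0.905, 0.704 and 0.667. Hspa5 followed the epiblast score (r = 0.740, rho 0.753, permutation p = 5e-05 and 3e-05, adjusted p = 0.0035; r = 0.695 without HC4 replicates 4 and 1), and within slides this was 0.798, 0.817 and 0.787. The primitive endoderm score ran from -0.73 to 0.37 over pools and the epiblast score from -0.34 to 0.35. A score is a plain mean of its markers' deviations, so the most variable marker weighs most. In the epiblast score this was Tdgf1, with an SD of 0.79 over pools, against 0.16 (Esrrb) to 0.31 (Nanog) for the rest. Relations with single markers were not worked out. No array measure passed the threshold with any member. The log2 75th percentile signal had r = 0.450 with Atf4, 0.416 with Asns, 0.411 with Herpud1 and 0.347 with Trib3. Their permutation p were 0.0274, 0.0446, 0.0467 and 0.096 (adjusted p = 0.107 to 0.217). These r were 0.185 to 0.428 within slides 1 and 2 and 0.660 to 0.810 within slide 3. A part of array brightness in the joint movement was not tested.

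Atf4 and Chac1 also followed the primitive endoderm score (r = 0.552 and 0.549, rho 0.618 and 0.523, permutation p = 0.00407 and 0.00146 for Atf4, 0.00303 and 0.00928 for Chac1), and Xbp1 the epiblast score (r = 0.565, rho 0.560, permutation p = 0.00421 and 0.00476), each with an adjusted p of 0.0368. Without the pairs of pools named above these r were 0.582, 0.375 and 0.453. Within slides they were 0.890, 0.479 and 0.644 for Atf4, 0.838, -0.180 and 0.822 for Chac1 and 0.758, 0.323 and 0.636 for Xbp1. Asns ran against a blood score that rests on 1 gene (r = -0.598, rho -0.453, permutation p = 0.00149 and 0.0277, adjusted p = 0.0348), with r = -0.444 without HC5 replicate 3 and HC1 replicate 1 and -0.866, -0.233 and -0.570 within slides.

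The trophectoderm score moved with Herpud1, Trib3 and Asns, less closely without HC6 replicate 3. With Herpud1 its r was 0.548 (rho 0.542, permutation p = 0.00324 and 0.00667, adjusted p = 0.0368), 0.389 without HC6 replicate 3 and HC5 replicate 2, and 0.340, 0.799 and 0.501 within slides. The r was 0.527 with Trib3 and 0.575 with Asns (rho 0.422 and 0.435, permutation p = 0.00537 and 0.0422 for Trib3, 0.00237 and 0.0355 for Asns, adjusted p = 0.0418 and 0.0368). Without HC6 replicate 3 and HC5 replicate 2 these were 0.323 and 0.349. Within slides they were 0.449, 0.691 and 0.338 for Trib3 and 0.279, 0.949 and 0.284 for Asns.

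With the trophectoderm, epiblast and primitive endoderm scores as further covariates, a fit chosen after the data were seen, 9 of the 12 pairs among Atf4, Trib3, Asns and Herpud1 were still called. The 3 lost were those with Trib3 as covariate (limma adjusted p = 0.0932 for Atf4, 0.132 for Asns and 0.177 for Herpud1), with slopes of 0.53, 0.39 and 0.69. In that fit Trib3 called 1 gene of the array, an ATF4 target. Asns called 8 of 31 ATF4 targets and 1 of 20 synthetases, where 0.625% of genes were called. Hspa5 called 2 of 20 chaperones (1.54% of genes).

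Leaving out HC6 replicate 3 and HC5 replicate 4 together kept all 12 pairs, and the Trib3 fit then called 13 of 31 ATF4 targets and 9 of 20 synthetases. In the Xbp1 fit it left 2 of 20 chaperones. With single pools left out, the Trib3 fit called 10 to 19 ATF4 targets and 3 to 12 synthetases, the lowest synthetase count without HC6 replicate 3 and the highest without HC5 replicate 4. The synthetase count also fell to 4 without HC3 replicate 1, HC6 replicate 1 or HC3 replicate 2, and to 5 without HC1 replicate 2, HC4 replicate 2 or HC2 replicate 4.

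Genes most alike to each member in level over the 24 pools were sought among 9966 genes above background on every array. For Trib3 they were Cebpb (r = 0.924), Gars (0.919) and Psph (0.917), and for Asns Slc7a1 (0.919), Bace2 (0.897) and Trib3 (0.888). For Atf4 they were Lars (0.879), Asns (0.871) and Sfmbt2 (0.870). Herpud1 was most like Myo1d (0.895), Tspan8 (0.889) and Ctsc (0.876). Among genes ranked by likeness to Asns, Trib3 stood 3rd, Atf4 8th and Herpud1 13th, whereas Hspa5 stood 5377th.

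For Hspa5 the most alike were Eif4h (r = 0.892), Ercc3 (0.878) and Rc3h1 (0.873), and for Xbp1 Setdb1 (0.883), Zfp830 (0.876) and Smu1 (0.869). Ddit3 was most like Aars (0.832), Sars (0.812) and Plcd1 (0.805), of which Aars and Sars are synthetases for alanine and serine. Chac1 was most like Slc1a5, a glutamine importer (0.842), Utf1 (0.787) and Pfkp (0.785). For Dnajb9 they were Gins1 (0.821), Zc3hav1 (0.820) and Zfp142 (0.812), which fell to 0.637, 0.632 and 0.617 without HC5 replicate 4. All are r over the same 24 arrays, whose scaling they share.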

How the data were processed

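Total RNA of each pool was amplified from 2 ng, labelled with Cy3 and hybridised to a one-colour Agilent array, per the labels' protocols. The deposited scanner files hold intensity values. Their headers, like the notes of the submitters, give Feature Extraction 10.10.1.1 from Agilent as the software, and the notes also name limma. Per the file headers, the intensity used here had its background subtracted and a spatial trend removed on each array, with no scaling between arrays. The authors' deposited table of log2 values, whose normalization is not given in the sources used here, served as an alternative.

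Control and outlier spots were left out, log2 signals were averaged over spots of a probe, and each array's 75th percentile was subtracted. A kept probe passed the scanner's test of signal over background on 4 or more of 24 arrays, with at least 2 values in each condition (27074 of 56605 probes), and a gene was its brightest such probe. Fits used limma 3.58.1 in R 4.3.3, with eBayes and Benjamini-Hochberg adjustment over all genes at 0.05. A fit with a missing value drops that array for that gene (255 genes, Atf3 among them). Correlations used 100000 resamples, two-sided, in Python 3.11.15 with numpy 2.4.6, pandas 2.3.3 and scipy 1.17.1. Figures used matplotlib 3.10.9. The code was checked on simulated arrays.

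The members and the gene lists were chosen with earlier results of these data known. Named genes are the members, the 3 genes of smallest F-test p of each list and the 3 genes most like each member. Other genes named with the member fits were chosen after their values were seen. Alternatives were other background corrections, normalizations, filters and probe rules, slide or replicate number as a block, array weights, an intensity trend, and leaving out each pool. The number of arrays limits the precision.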

Additional observations from a re-analysis of the deposited data

Results flagged for a closer look

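Within a condition's 4 pools, a pool was singled out where its distance to the nearest pool took up most of the condition's range by Dixon's criterion. Of 59 gene and condition groups, 5 were singled out, and chance singles out about 1 in 20. In HC2, replicate 4 stood above the other pools for Atf4 (7.53) and for Asns (6.54). In HC4, replicate 4 stood below the others for Hspa5 (5.18), and replicate 2 stood above them for Dnajb9 (0.63). In HC5, replicate 4 stood below the others for Dnajb9 (-1.50), and this pool was also the dimmest array.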

How the results depend on the processing

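The counts of genes called between conditions, 0 throughout, rose to at most 4 in a few alternatives. With the authors' values HC2 had 2 calls, and with no filter on dim probes HC5 had 1. With single pools left out, the F-test gave 0 to 1 calls, HC1, HC2 and HC5 each 0 to 1, HC4 0 to 2 and the pairs 0 to 4. Condition differences that changed sign were all far from the threshold. Ddit3 in HC5 was -0.0361 with the mean of a gene's probes and -0.0607 to 0.205 with an HC5 pool left out. With a pool of the named condition left out, Trib3 in HC3 ran from -0.272 to 0.0626, Herpud1 in HC6 from -0.271 to 0.0596 and Dnajb9 in HC5 from -0.454 to 0.0227; their highest values were without HC3 replicate 2, HC6 replicate 3 and HC5 replicate 4, and the lowest for Ddit3 was without HC5 replicate 4. The 18 member pairs called fell to 9 with the mean of a gene's kept probes, 7 of them among Atf4, Trib3, Asns and Herpud1; the cause was not tested. The other alternatives gave 12 to 21. All 12 pairs of these 4 genes kept their call under both quantile normalizations, the other percentile, the authors' values, the stricter filter, every probe as a feature and slide as a block, 10 did with no filter on dim probes, and 11 or 12 did with any pool left out. With the replicate block 12 member pairs were called, 8 of them among these 4 genes, and 4 lost their call (limma adjusted p = 0.07 for Trib3 and 0.0501 for Herpud1 on Atf4, 0.139 for Atf4 and 0.154 for Herpud1 on Trib3). The block left 7 of 31 ATF4 targets and 3 of 20 synthetases in the Trib3 fit, 7 and 2 in the Asns fit, 5 and 3 in the Herpud1 fit and 1 and 1 in the Atf4 fit. Across conditions, arrays of one number correlated in their deviations from condition means from -0.324 to 0.338 (median -0.011), and 13 of 24 arrays correlated best with one of their own number, so the check did not settle whether numbers pair the pools. The series text speaks of series within a condition but does not say that numbers mark them. The Trib3 fit called 5 synthetases with quantile normalization or the authors' values and 3 with no filter on dim probes, against 8. Atf3 was above background on 21 of 24 arrays.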

Other observations

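Chac1 levels differed by the replicate number of the labels, which are not stated to mark a shared series, day or batch. The 6 pools numbered 1 had a mean of 2.18 ± 0.11 (SD, n = 6) and those numbered 2 a mean of 1.34 ± 0.22 (SD, n = 6), against 1.48 ± 0.45 for number 3 and 1.83 ± 0.24 for number 4 (SD, n = 6 each). Numbers 1 and 2 are those of highest and lowest mean, and were set side by side after the values were seen. Chac1 is 1 of 10 genes looked at in this way. The share of all genes that differ as much by number was not worked out, and no test by number is given. For Trib3 the means of the 4 numbers were 4.98 ± 0.37, 4.35 ± 0.41, 4.59 ± 0.42 and 4.75 ± 0.34 (SD, n = 6 each), and for Asns 6.46 ± 0.15, 6.13 ± 0.17, 6.14 ± 0.29 and 6.28 ± 0.22 (SD, n = 6 each). For Atf4 they were 7.30 ± 0.14, 7.01 ± 0.20, 7.13 ± 0.20 and 7.24 ± 0.21, and for Herpud1 2.43 ± 0.22, 2.02 ± 0.33, 2.10 ± 0.25 and 2.16 ± 0.48 (SD, n = 6 each). Number 1 had the highest mean and number 2 the lowest for Chac1, Trib3, Asns, Atf4 and Herpud1. The same held by smaller differences for Xbp1 and Atf3, but not for Ddit3, Hspa5 or Dnajb9. By slide, Chac1 means were 1.99, 1.35 and 1.78 (8 pools each, limma F-test adjusted p = 0.673 with 0 of 18142 genes called and an unadjusted p of 0.00932 for Chac1).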
